A study of Mus musculus with 17 samples.

Results

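Psat1, Phgdh, Psph, Shmt2, Mthfd2, Aldh1l2, Asns, Pycr1, Cth and Gpt2 are 10 genes that encode enzymes of serine, asparagine, proline, cysteine, alanine and one-carbon metabolism and are commonly listed as targets of the transcription factor ATF4. They were chosen by name and matched by symbol to the Ensembl row IDs of the count tables, where all 10 were found among 43430 gene rows. Their levels were read from 17 RNA-seq libraries of flow-sorted AT2 cells (alveolar epithelial type 2, the cells that make surfactant), all from C57BL/6J mice aged 2 months. A poly(A) set, made with the NEBNext Ultra kit from 3 ng of RNA, held 4 vehicle and 4 ISRIB libraries from uninjured (naive) mice, with cells taken 24 h after the dose. ISRIB is a small molecule that activates the translation factor eIF2B and counters the integrated stress response. A total-RNA set, made with the SMARTer Stranded Total RNA v2 Pico kit from 0.35 ng, held 4 naive libraries and 5 taken 14 days after bleomycin, which damages the lung and is used to model fibrosis. The treatment label of all 9 total-RNA libraries was vehicle and their titles also say saline, so naive and bleomycin mice carry the same second label. The labels give no dose, sex or route, and they do not say whether replicates were separate mice, so p-values measure the spread between libraries, which may be technical.

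In the integrated stress response, phosphorylation of eIF2 lowers the translation of most mRNAs and raises that of Atf4, and the ATF4 protein then activates genes for amino acid synthesis and import. Phgdh, Psat1 and Psph make serine from a glycolytic intermediate in consecutive steps. In mitochondria, Shmt2 moves a one-carbon unit from serine onto folate, Mthfd2 oxidises it toward formate for purine and thymidylate synthesis, and Aldh1l2 releases it as carbon dioxide. Asns makes asparagine, Pycr1 makes proline in mitochondria, Cth makes cysteine from cystathionine, and Gpt2 exchanges amino groups between alanine and glutamate in mitochondria.

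Total counts ran from 10493574 to 15727139 per poly(A) library and from 3295257 to 6333166 per total-RNA library. Levels are in CPM, each count divided by the library's effective size and scaled to a sum of about 1000000, and no level was compared between the kits. The summed level of 10 AT2 marker genes was 212747 to 221569 CPM in the poly(A) libraries, 89937 to 99181 CPM in the naive and 53566 to 100329 CPM in the bleomycin libraries, with none of these genes at 0 counts in a group. Neutrophil marker genes summed to at most 0.801 CPM in the poly(A) libraries and 1.8 CPM in the others. Macrophage and monocyte genes summed to at most 8.97 and 10.4 CPM.

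Promoter sequence is shown for Asns and Pycr1, which carry the motif through which ATF4 is known to act, and for Psat1 and Mthfd2, whose levels differed most in these libraries. RefSeq windows (GRCm38.p6, from 250 bases before to 50 bases after a gene's start) were found for 8 of the 10 members. Aldh1l2 and Cth had none. Both strands were searched for TGATGNAA (TTNCATCA on the other strand), the core of the C/EBP-ATF response element through which ATF4 and C/EBP proteins bind DNA. It was present in 2 of the 8, Asns and Pycr1, and in 3.97% of 32851 promoter windows of the same length. The sites are at chr6:7693214-7693243 and chr11:120643833-120643862, both on the minus strand, with the core in capitals.
Asns: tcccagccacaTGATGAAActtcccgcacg
Pycr1: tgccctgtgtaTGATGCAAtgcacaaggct
No TGATGNAA match lay in the windows of Psat1, Phgdh, Psph, Shmt2, Mthfd2 or Gpt2. This says only that these letters are not in those windows.

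A search for the CCAAT box (CCAAT, or ATTGG on the other strand), bound by the factor NF-Y, was added after the sequences had been seen. At least 2 matches were present in 5 of the 8 members, Psat1, Phgdh, Psph, Mthfd2 and Pycr1, against 11.7% of all windows. Psat1 has 2 windows and was counted by the one with more matches. Its other window held no CCAAT box, whereas the 11.7% is a share of single windows. None was present in Asns, Gpt2 or Shmt2. Matches of the 2 motifs shared no bases. The stretches before the start of Psat1 (chr19:15925060-15925309, minus strand, 1 of 2 RefSeq starts) and Mthfd2 (chr6:83317607-83317854, minus strand) are shown with the CCAAT boxes of either strand in capitals. These 2 genes were picked because they had the largest fold changes of the list, lower with ISRIB and higher after bleomycin. Mthfd2 did not pass the threshold with ISRIB (edgeR adjusted p 0.0661). Phgdh, Psph and Pycr1, also with at least 2 boxes, had log2 fold changes with ISRIB of -0.04, 0.11 and 0.15. A link between the boxes and the levels was not tested.
Psat1: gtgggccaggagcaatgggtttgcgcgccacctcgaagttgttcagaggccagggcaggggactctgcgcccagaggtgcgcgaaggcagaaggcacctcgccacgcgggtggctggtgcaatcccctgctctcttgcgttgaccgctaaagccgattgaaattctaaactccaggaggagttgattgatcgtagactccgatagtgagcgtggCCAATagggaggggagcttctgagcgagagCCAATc
Mthfd2: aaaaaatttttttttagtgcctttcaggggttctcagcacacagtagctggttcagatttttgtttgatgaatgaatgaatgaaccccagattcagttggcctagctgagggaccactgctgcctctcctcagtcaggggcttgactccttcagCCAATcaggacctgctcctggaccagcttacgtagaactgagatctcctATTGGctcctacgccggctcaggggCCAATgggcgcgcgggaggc
Counting also the 50 bases after the start, the Psat1 window shown and that of Mthfd2 each held 3 boxes. Of all windows, 3.37% held at least 3. The third box of Psat1 lies after its start, outside the stretch shown. A match is a description of the sequence and not a binding site.

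The 10 enzymes were low to moderate transcripts of uninjured AT2 cells. Their summed level was 118 to 131 CPM in the 4 vehicle libraries and 66.5 to 88.5 CPM in the 4 naive total-RNA libraries. Genes were set side by side as CPM per kilobase of annotated exon. Length here and below is that of all annotated exons of a gene merged. On this scale the vehicle libraries were led by Cth at 11.1 ± 1.34 (SD, n = 4), followed by Gpt2 at 6.77 ± 0.5 and Asns at 5.67 ± 0.584. Cth stood clear of all others, while the ranges of Gpt2 and Asns overlapped. Shmt2 (3.93 ± 0.577) and Psat1 (2.74 ± 0.354) came next, each with a range separate from its neighbours in the order. Psph (1.08 ± 0.238), Mthfd2 (0.845 ± 0.21), Phgdh (0.768 ± 0.147) and Aldh1l2 (0.695 ± 0.302) formed a low group in which each range overlapped that of the next. Pycr1 was lowest at 0.281 ± 0.0661 and lay below all of them. Along serine synthesis, the middle step Psat1 was thus the most abundant transcript per length, and the first step Phgdh had the lowest mean, in a range that overlapped that of Psph. These overlaps depend on the length used. The merged exons of Psph and Phgdh span 4329 and 2486 bases, and their longest coding transcripts 1733 and 1893 bases. Per transcript length, Psph and Phgdh would lie apart, as would Gpt2 and Asns. The ranges of Shmt2 and Psat1 would then overlap.

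The same 5 genes led the naive total-RNA libraries in the same order, from Cth at 6.44 ± 0.815 through Gpt2 at 4.09 ± 0.523, Asns at 2.71 ± 1.6 and Shmt2 at 2.53 ± 0.577 to Psat1 at 1.05 ± 0.408 CPM per kilobase. After bleomycin the order on this scale was different at the top. Shmt2 (4.42 ± 1.28, n = 5) stood first, ahead of Cth (4.16 ± 1), Gpt2 (3.18 ± 1.19), Asns (3.18 ± 0.636) and Psat1 (3.01 ± 1.31), although the range of each of these overlapped that of its neighbour. In the ISRIB libraries the top 5 kept the vehicle order, and Mthfd2 stood in the ninth place instead of the seventh, at 0.422 ± 0.129 (n = 4), where its range overlapped those of both neighbours. These orders depend on the length used. The merged exons of Shmt2 and Cth span 3109 and 2791 bases, and their longest coding transcripts 2289 and 1815 bases. Per transcript length, Cth would keep the highest mean after bleomycin. Psph would then precede Psat1 in the naive and ISRIB libraries.

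**Figure D1:**
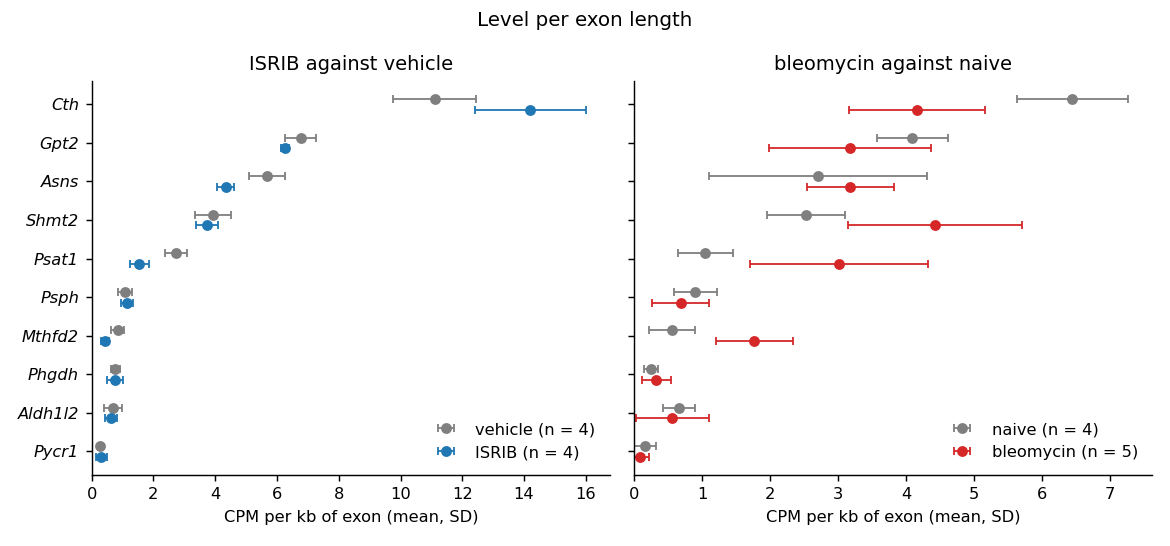
Level of each of the 10 enzymes in CPM per kilobase of annotated exon (horizontal axis, its own scale in each panel), for the poly(A) libraries (vehicle and ISRIB, 4 each) and the total-RNA libraries (4 naive, 5 bleomycin). Points are group means and bars are SDs. On this scale Cth is highest in the vehicle, ISRIB and naive libraries, and Shmt2 has the highest mean after bleomycin, an order that depends on the length used.

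Some of these levels are less certain than the counts alone imply. Phgdh has 21 annotated processed pseudogenes, 87.7% to 98.7% identical to its transcript, of which 10 have a row in the count tables. Of the 50-base stretches of the Phgdh transcript, 63.1% occur in transcripts of other annotated genes. Phgdh had 183 counts over the poly(A) libraries and its pseudogenes 1. In the total-RNA libraries the figures were 27 and 13. Psph shares 452 bases of exon with Cct6a and Aldh1l2 shares 1056 bases with D10Wsu102e, in both cases on the opposite strand, and reads there cannot be told apart if the counting ignored strand.

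Vehicle and ISRIB libraries were compared to find which of the enzymes had moved 24 h after the compound in uninjured mice. Of the 10 enzymes, the serine synthesis gene Psat1 fell to 0.568 times its vehicle level, and it was the only member that passed the threshold (edgeR quasi-likelihood test, Benjamini-Hochberg adjusted p under 0.05). Of all 12054 genes tested, 2.20% passed, 1.10% as lower. Mthfd2, Asns and Psat1 were lower in every ISRIB library than in every vehicle library, 3 of 10 members, against 4.39% of all genes tested (8.65% with either direction counted). No member had the ISRIB libraries wholly above the vehicle libraries, which 4.26% of all genes did. The median log2 fold change of the 10 was -0.09 (3 above 0 and 7 below), against 0 over all genes tested.

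**Figure D2:**
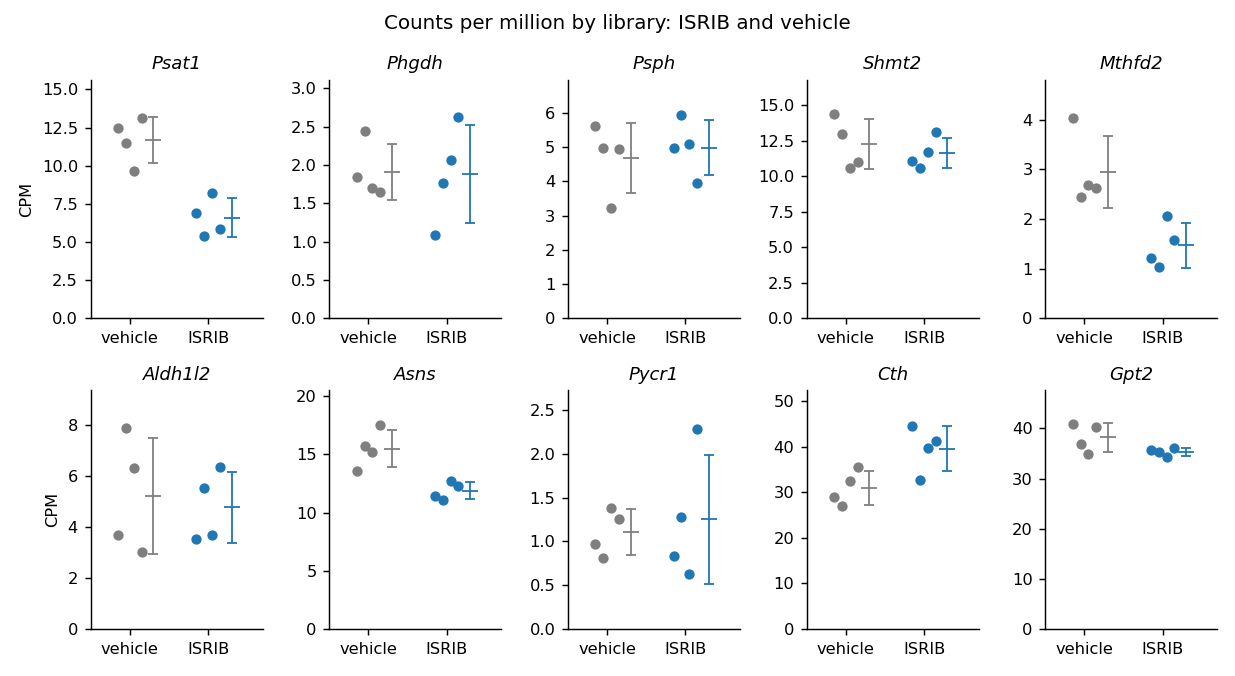
CPM of the 10 enzymes in each poly(A) library (vertical axis from 0, its own scale for each gene), with the mean and SD of the 4 vehicle and the 4 ISRIB libraries beside the points. The ISRIB libraries lie wholly below the vehicle libraries for Psat1, Mthfd2 and Asns, and the groups overlap for the other 7 genes.

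Psat1 (phosphoserine aminotransferase, ENSMUSG00000024640, GRCm38 chromosome 19, 15904678 to 15947337) moves an amino group onto the serine precursor. It was at 12.5, 11.5, 9.64 and 13.1 CPM in vehicle 1 to 4 and at 6.9, 5.37, 8.23 and 5.88 CPM in ISRIB 1 to 4. The groups did not overlap, and the gap lay between vehicle 3 and ISRIB 3. The log2 fold change was -0.82 (SE 0.15, 95% interval -1.13 to -0.51, edgeR adjusted p 0.00945), at rank 46 by p among all genes tested. The call held in every alternative tried, including each library left out, with a range of -0.93 to -0.73 over the leave-outs. In bulk libraries such as these, fewer cells that express a gene and less RNA per cell cannot be told apart.

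The neighbours of Psat1 in serine synthesis did not pass the threshold. Phgdh (phosphoglycerate dehydrogenase, ENSMUSG00000053398, chromosome 3, 98313170 to 98339990), the entry step, was at 1.84, 2.44, 1.7 and 1.65 CPM with vehicle and 1.09, 1.76, 2.06 and 2.63 CPM with ISRIB. The highest and the lowest of these 8 values were both from ISRIB libraries. Its log2 fold change of -0.04 had a wide interval, -0.66 to 0.58 (adjusted p 0.965). Psph (phosphoserine phosphatase, ENSMUSG00000029446, chromosome 5, 129765558 to 129787449), the last step, was at 5.61, 4.97, 3.21 and 4.95 CPM with vehicle and 4.98, 5.93, 5.1 and 3.95 CPM with ISRIB. The groups overlapped almost fully, with a log2 fold change of 0.11 (interval -0.30 to 0.52, adjusted p 0.852). The interval of Psat1 overlaps that of Phgdh and lies below that of Psph, and the difference between the genes was not tested.

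Among the mitochondrial one-carbon enzymes, the second step had the largest difference. Mthfd2 (methylenetetrahydrofolate dehydrogenase and cyclohydrolase, ENSMUSG00000005667, chromosome 6, 83305691 to 83325908) was at 4.03, 2.44, 2.69 and 2.62 CPM with vehicle and 1.21, 1.04, 2.06 and 1.58 CPM with ISRIB. Vehicle 1 was the highest, and even the lowest vehicle library exceeded the highest ISRIB library. Its log2 fold change of -1.01 (SE 0.28, interval -1.60 to -0.44) did not pass the threshold (adjusted p 0.0661). It rests on 141 counts in all over the vehicle libraries and 73 over the ISRIB libraries, and it passed when low-count genes were not filtered out (adjusted p 0.018). No other alternative called it, and DESeq2 gave it no adjusted p. Over the leave-outs the edgeR adjusted p ran from 0.0519 (without ISRIB 3) to 0.214 (without vehicle 1, log2 fold change -0.83).

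Shmt2 (serine hydroxymethyltransferase, ENSMUSG00000025403, chromosome 10, 127517123 to 127522444), which hands the one-carbon unit of serine to folate, was at 14.4, 13, 10.6 and 11 CPM with vehicle and 11.1, 10.6, 11.7 and 13.1 CPM with ISRIB. The groups overlapped, and the log2 fold change of -0.07 had an interval of -0.33 to 0.18 (adjusted p 0.843). Aldh1l2 (mitochondrial formyltetrahydrofolate dehydrogenase, ENSMUSG00000020256, chromosome 10, 83487450 to 83534140) removes one-carbon units from the folate pool. It was at 3.68, 7.87, 6.29 and 3.01 CPM with vehicle and 3.51, 5.53, 3.67 and 6.32 CPM with ISRIB, a log2 fold change of -0.16 (interval -0.72 to 0.41, adjusted p 0.847). The ISRIB range lay inside the vehicle range.

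Asns (asparagine synthetase, ENSMUSG00000029752, chromosome 6, 7675169 to 7693254) carries the TGATGAAA site shown above. It was at 13.6, 15.7, 15.2 and 17.5 CPM with vehicle and 11.4, 11.1, 12.7 and 12.3 CPM with ISRIB. The groups did not overlap, although vehicle 1 and ISRIB 3 lay close together. Its change of -0.39 on the log2 scale (SE 0.10, interval -0.60 to -0.17) stayed short of the threshold (adjusted p 0.0652), and it passed without the filter on low counts (adjusted p 0.0343). No other alternative called it, with an edgeR adjusted p of 0.0678 to 0.144 over the leave-outs. Pycr1 (pyrroline-5-carboxylate reductase, ENSMUSG00000025140, chromosome 11, 120635712 to 120643769), the other gene with this core in its window, was at 0.964, 0.814, 1.38 and 1.26 CPM with vehicle and 0.83, 1.28, 0.626 and 2.28 CPM with ISRIB. ISRIB 4 was the highest and ISRIB 3 the lowest, so the log2 fold change of 0.15 had the widest interval of the list (-0.68 to 0.97, adjusted p 0.908).

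Cth (cystathionine gamma-lyase, ENSMUSG00000028179, chromosome 3, 157894248 to 157925077), the last enzyme of transsulfuration, leaned the other way. It was at 29, 27, 32.5 and 35.5 CPM with vehicle and 44.7, 32.8, 39.7 and 41.4 CPM with ISRIB. Only ISRIB 2 reached into the vehicle range. The log2 fold change of 0.36 (SE 0.10, interval 0.15 to 0.56) did not pass (adjusted p 0.0721). It passed without ISRIB 2 (0.44, adjusted p 0.0207), without vehicle 4 (0.42, adjusted p 0.0417), with no filter on low counts (adjusted p 0.00128) and in DESeq2 (adjusted p 0.0299). Gpt2 (mitochondrial alanine aminotransferase, ENSMUSG00000031700, chromosome 8, 85492576 to 85527560) had the narrowest interval of the list. It was at 40.9, 36.8, 34.9 and 40.2 CPM with vehicle and 35.6, 35.2, 34.3 and 36.1 CPM with ISRIB. This gave a log2 fold change of -0.11 (interval -0.26 to 0.04, adjusted p 0.479).

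The other genes of these pathways were taken from 5 lists of 67 genes in all, of which 56 were tested in the ISRIB comparison. None of the 56 passed the threshold in edgeR (2.20% of all genes did) and 11 had an unadjusted p under 0.05 (16% of all genes did). The median log2 fold change was -0.06 (24 above 0 and 31 below). By list, the medians were -0.18 for 9 other serine and glycine genes, -0.10 for 16 folate genes, -0.04 for 13 methionine, transsulfuration and glutathione genes, 0.02 for 6 proline genes and 0.03 for 12 aspartate, alanine and glutamate genes. DESeq2 called 1 of them, the ornithine aminotransferase gene Oat (-0.16, adjusted p 0.0431). Without the filter 4 passed, Glul, Aldh1l1, Gcat and Bcat2. Without vehicle 3, edgeR called the glutamine synthetase gene Glul (0.65, adjusted p 0.00686).

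ATF4 itself and 22 further stress-response genes of its circle were read beside the enzymes, 22 of the 23 tested. Atf4 mRNA was at 72.2 ± 7.32 CPM with vehicle and 87.0 ± 6.45 CPM with ISRIB (SD, 4 libraries each), and its log2 fold change of 0.27 (interval 0.11 to 0.42) did not pass (adjusted p 0.069). Slc3a2, the heavy chain of amino acid exchangers, rose from 171 ± 8.15 to 218 ± 21.9 CPM (0.35, SE 0.07, adjusted p 0.0137). The glutamine transporter gene Slc1a5 fell from 141 ± 11 to 113 ± 6.33 CPM (-0.31, SE 0.06, adjusted p 0.0147). The groups did not overlap for either transporter. These 2 of the 22 passed, 9.09% against 2.20% of all genes tested. An unadjusted edgeR p under 0.05 was seen for 8, of which 7 were higher and 1 lower, while 16% of all genes had one. The median of the 22 was 0.14, with 16 above 0 and 6 below. The 2 transporters went opposite ways.

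The summed markers of other cells overlapped between vehicle and ISRIB libraries for every list but the lymphocyte genes, at 18.8 to 21.1 and 15.8 to 17.5 CPM. Endothelial genes summed to 44.5 to 63 CPM with vehicle and 48.7 to 56.9 CPM with ISRIB, and fibroblast genes to 17.3 to 25.6 and 12.1 to 25 CPM. Airway epithelial genes summed to 3908 to 4365 CPM with vehicle and 2424 to 4225 CPM with ISRIB, and 1 of 6 tested, the ciliated cell gene Tppp3, fell (-0.43, adjusted p 0.00384). Proliferation genes summed to 122 to 227 CPM and 130 to 158 CPM. Of these 16 genes, 14 had a log2 fold change below 0 (median -0.18), 3 had an unadjusted p under 0.05, all as lower, and 1 passed the threshold, the replication helicase gene Mcm6 (-0.37, adjusted p 0.0155). Their part in the result for Psat1 was not tested.

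The comparison of bleomycin with naive asked what differed in AT2 cells 14 days after lung injury. Psat1 rose to 2.76 times its naive level, and with it rose the one-carbon genes Mthfd2 (3.06 times) and Shmt2 (1.72 times). These were 3 of the 8 members that passed the filter on low counts, and none passed as lower. Mthfd2 passed the filter only through the bleomycin libraries, where it is high. It had 3, 12, 3 and 11 counts in naive 1 to 4, and 20 to 34 in the bleomycin libraries. Shares of the 8 are thus a description and lean toward members high after bleomycin. An unadjusted p under 0.05 was seen for 4 of the 8, these 3 and Cth as lower, against 33.3% of all genes tested. Of all 11223 genes tested, 20.5% passed, 11.2% as higher, so a call was far more common here than in the ISRIB comparison. Bleomycin libraries lay wholly above the naive libraries for these 3 members (10.4% of all genes tested) and wholly below for Cth (9.35%), 4 of the 8 tested members in all against 19.7% of all genes tested. The median log2 fold change of the 8 was -0.04 (4 above 0 and 4 below), against 0.003 over all genes. Phgdh and Pycr1, low in both groups, fell short of the filter, were not tested and are not among the 8.

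**Figure D3:**
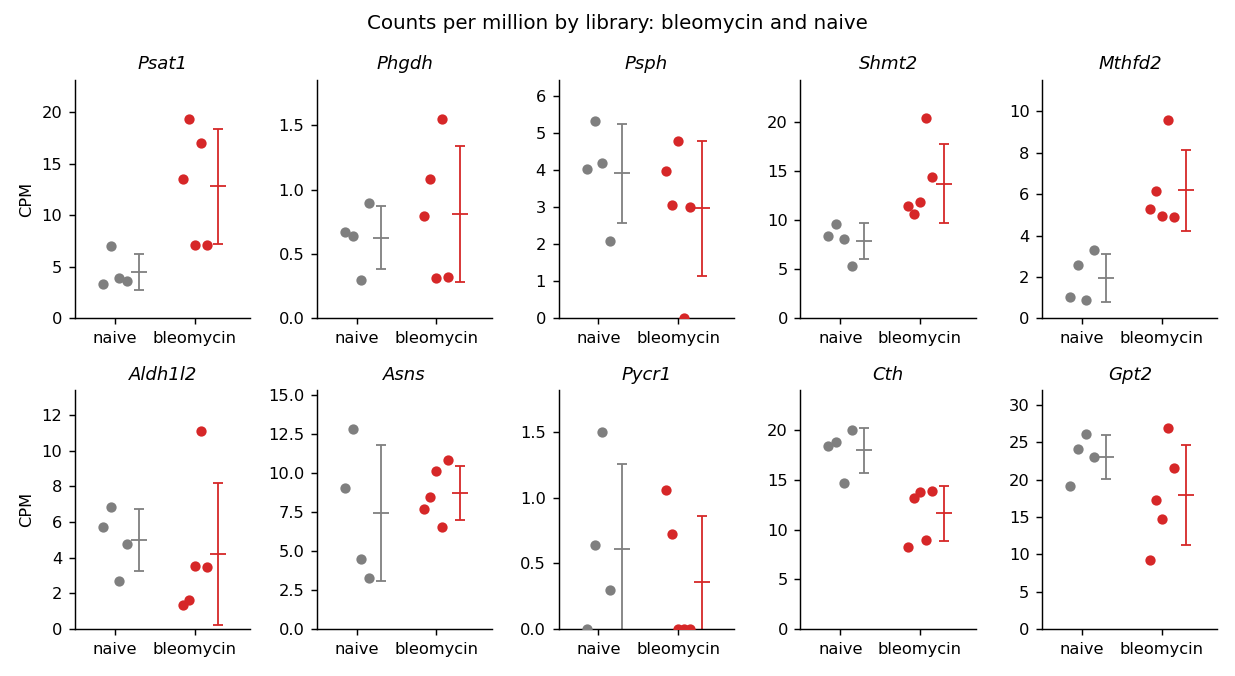
CPM of the 10 enzymes in each total-RNA library (vertical axis from 0, its own scale for each gene), with the mean and SD of the 4 naive and the 5 bleomycin libraries beside the points. The bleomycin libraries lie wholly above the naive libraries for Psat1, Shmt2 and Mthfd2 and wholly below for Cth, and the groups overlap for the other 6 genes.

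Psat1 was at 3.35, 7.05, 3.9 and 3.58 CPM in naive 1 to 4 and at 13.5, 19.3, 7.12, 17 and 7.13 CPM in bleomycin 1 to 5. The bleomycin libraries fell into 3 high and 2 low values, and the 2 low ones (bleomycin 3 and 5) were only just above naive 2. The log2 fold change was 1.47 (SE 0.37, interval 0.69 to 2.25, edgeR adjusted p 0.0088), with 1.26 to 1.80 when each library was left out. limma-voom, which gave 1.24, did not call it (adjusted p 0.0819).

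Its neighbours in the pathway were thinly covered. Phgdh had 9 counts over the naive and 18 over the bleomycin libraries, 0.300 to 0.894 CPM and 0.310 to 1.55 CPM, so a difference was not detectable at this depth. Without the filter its log2 fold change was 0.32 (adjusted p 0.863). Psph was at 4.03, 5.34, 4.2 and 2.09 CPM in the naive libraries and 3.97, 3.07, 4.8, 0 and 3.01 CPM after bleomycin. The 0 in bleomycin 4 allows up to 0.928 CPM (3 counts, counting error only). With that spread the log2 fold change of -0.37 had an interval of -1.58 to 0.84 (adjusted p 0.705).

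Mthfd2 was at 1.01, 2.56, 0.901 and 3.28 CPM in the naive libraries and 5.29, 6.14, 4.96, 9.59 and 4.91 CPM after bleomycin. Every bleomycin library exceeded the highest naive library, and bleomycin 4 was the highest by far. This gave a log2 fold change of 1.61 (SE 0.47, interval 0.64 to 2.61, edgeR adjusted p 0.0188). It rests on 29 counts over the naive libraries, 3 of them in naive 1 and 3 in naive 3. Without naive 1 (1.42, adjusted p 0.0699) or naive 3 (1.39, adjusted p 0.0708) the call was lost.

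Shmt2 was at 8.39, 9.61, 8.11 and 5.36 CPM in the naive libraries and 11.4, 10.6, 11.9, 20.4 and 14.4 CPM after bleomycin. The groups did not overlap, and bleomycin 4 was again the highest. The log2 fold change of 0.78 (SE 0.27, interval 0.22 to 1.36) passed narrowly (edgeR adjusted p 0.047). Leaving out naive 1, 2, 3 or 4 ended the call (adjusted p 0.0902, 0.058, 0.0964 and 0.158), and so did leaving out bleomycin 3, 4 or 5 (0.0526, 0.0849 and 0.0789). It was also lost with no filter (adjusted p 0.0605) and in limma-voom (0.0877), while the fold change stayed between 0.62 and 0.91 over the leave-outs.

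Aldh1l2, the third mitochondrial folate enzyme of the list, did not pass the threshold. It was at 5.7, 6.84, 2.7 and 4.77 CPM in the naive libraries and 1.32, 1.62, 3.56, 11.1 and 3.48 CPM after bleomycin. Bleomycin 4 lay above every naive library, and 2 of the other 4 lay below them all. Its log2 fold change of -0.30 had an interval of -1.44 to 0.83 (adjusted p 0.742), and without bleomycin 4 it was -0.97 and not called. Bleomycin 4 had the second lowest total count of the set (3299824) and the fewest genes with a count (13940), and it was also the highest library for Mthfd2, Shmt2 and Gpt2.

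Asns was at 9.06, 12.8, 4.5 and 3.28 CPM in the naive libraries and 7.67, 8.48, 10.1, 6.5 and 10.8 CPM after bleomycin. The naive libraries held both the highest and the lowest value, so the log2 fold change of 0.22 (interval -0.52 to 0.97, adjusted p 0.709) left the direction undetermined. Pycr1 had 9 counts over the naive and 8 over the bleomycin libraries, with no count in naive 1 and in bleomycin 3, 4 and 5. A difference was not detectable at this depth, since 3 counts come to 0.465 to 1.01 CPM in those 4 libraries.

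Cth was at 18.4, 18.8, 14.7 and 20 CPM in the naive libraries and 8.2, 13.2, 13.8, 8.97 and 13.9 CPM after bleomycin. The bleomycin libraries all lay below the naive ones. Its change of -0.61 on the log2 scale (SE 0.22, interval -1.08 to -0.14) missed the threshold (adjusted p 0.0592), and it was not called in any alternative tried. Gpt2 was at 19.1, 24.1, 26.1 and 23 CPM in the naive libraries and 9.26, 17.3, 14.7, 26.9 and 21.5 CPM after bleomycin. Bleomycin 4 was the highest of all and bleomycin 1 the lowest, and the log2 fold change was -0.37 (interval -0.88 to 0.14, adjusted p 0.303).

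**Figure D4:**
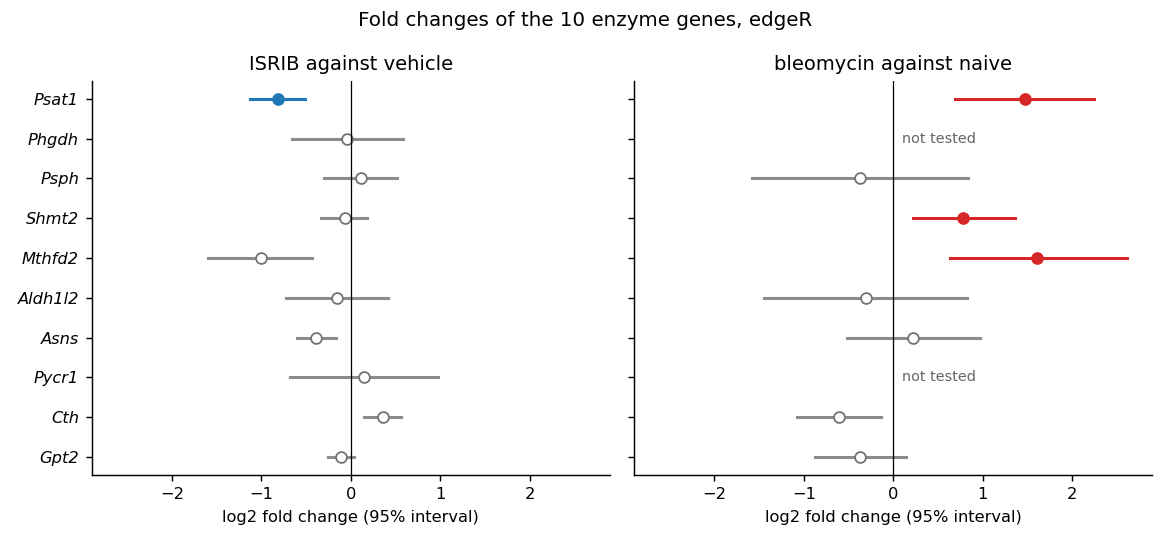
Log2 fold change of each of the 10 enzymes (horizontal axis) with its 95% interval from the edgeR fit, for ISRIB against vehicle and for bleomycin against naive. Filled points passed an adjusted p of 0.05, and Phgdh and Pycr1 were not tested after bleomycin. Psat1 passed as lower with ISRIB, and Psat1, Shmt2 and Mthfd2 passed as higher after bleomycin.

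Set side by side, Psat1 and Mthfd2 had the 2 largest estimates of the list in both comparisons, -0.82 and -1.01 with ISRIB and 1.47 and 1.61 after bleomycin. Cth was at 0.36 and -0.61. Shmt2 was near 0 with ISRIB (-0.07) and higher after bleomycin (0.78), and Gpt2 was below 0 in both (-0.11 and -0.37). The comparisons came from different kits with separate controls, and the difference between them was not tested. Their precision also differed, with a common biological coefficient of variation of 7.66% for the poly(A) libraries and 21.1% for the total-RNA libraries.

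Of the 67 other pathway genes, 51 were tested after bleomycin and 8 passed, 2 higher and 6 lower. That is 15.7%, below the 20.5% of all genes, and the median log2 fold change was -0.02. The 2 that rose were Tyms, which makes thymidylate from a folate-borne carbon (6.75 ± 1.41 to 13.2 ± 2.72 CPM, log2 fold change 0.98, adjusted p 0.0126), and Gclm, a subunit of the rate-limiting enzyme of glutathione synthesis (13 ± 1.8 to 23.1 ± 8.5 CPM, 0.84, adjusted p 0.0234). Tyms lost its call without naive 3 (0.88, adjusted p 0.05), and Gclm lost it without naive 1, 3 or 4 or bleomycin 2 (adjusted p 0.052, 0.0732, 0.0781 and 0.0661).

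The 6 that fell had bleomycin libraries wholly below naive libraries. Mat2a, which makes S-adenosylmethionine, fell from 108 ± 9.05 to 59.8 ± 9.71 CPM (-0.85, adjusted p 1.76e-04). Ahcyl2, a relative of S-adenosylhomocysteine hydrolase, fell from 491 ± 16.9 to 255 ± 53 CPM (-0.95, adjusted p 9.27e-05). The cytosolic counterparts of 2 members were also lower. Aldh1l1, the cytosolic form of Aldh1l2, fell from 74.4 ± 6.79 to 49.4 ± 8.71 CPM (-0.59, adjusted p 0.00559). Gpt, the cytosolic form of Gpt2, fell from 76.1 ± 7.79 to 48.3 ± 9.31 CPM (-0.66, adjusted p 0.00357). The proline-degrading enzyme gene Prodh fell from 19.8 ± 3.27 to 9.41 ± 2.27 CPM (-1.08, adjusted p 0.00265), and the glutamine synthetase gene Glul from 120 ± 16.2 to 60.0 ± 17.3 CPM (-0.99, adjusted p 5.35e-04). These 6 calls held in every alternative tried.

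**Figure D5:**
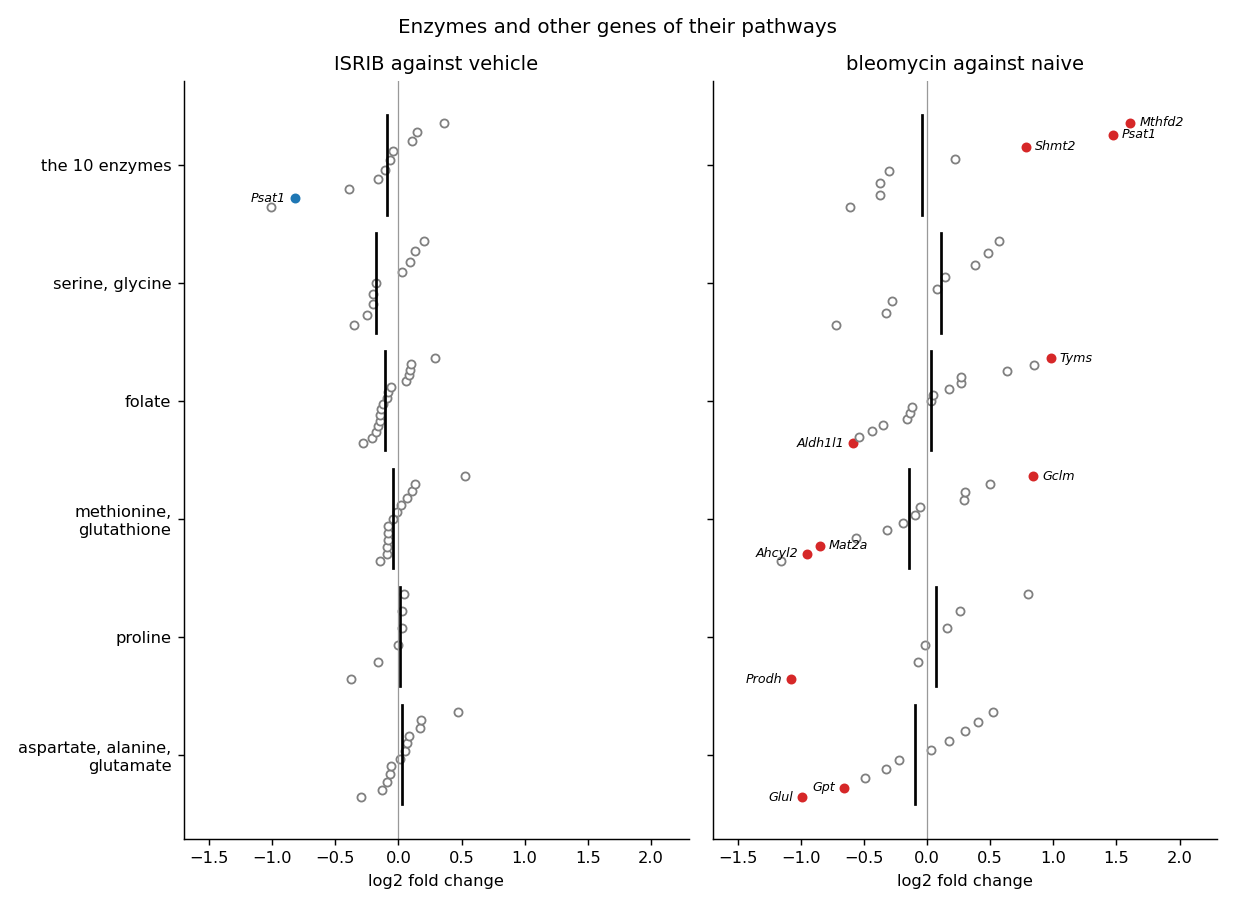
Log2 fold change (horizontal axis) of the tested members and of the tested genes of the 5 pathway lists, for ISRIB against vehicle and bleomycin against naive. Each point is a gene, filled and named where it passed an adjusted p of 0.05, and the vertical bar is the list's median. No gene of the 5 lists passed with ISRIB, and 2 rose and 6 fell after bleomycin.

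Among ATF4 and its circle, 21 of 23 genes were tested after bleomycin and 6 passed, 3 in each direction. That is 28.6%, against 20.5% of all genes tested. Atf4 was at 93.9 ± 11.1 CPM in naive (n = 4) and 80.9 ± 18.9 CPM in bleomycin libraries (n = 5), a log2 fold change of -0.22 (interval -0.55 to 0.11, edgeR adjusted p 0.354). Its target Sesn2, a leucine sensor, rose from 19.9 ± 3.48 to 36.2 ± 6.33 CPM (0.85, adjusted p 0.00246), without overlap. Atf3 (0.69, adjusted p 0.0484) and Slc3a2 (0.40, adjusted p 0.0217) also rose. Lower were Nupr1 (-0.82, adjusted p 0.00119), the lipoprotein receptor gene Vldlr (-0.79, adjusted p 0.0104) and the glycine transporter gene Slc6a9 (-1, adjusted p 0.0072).

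Markers of proliferation and of other cells moved with the bleomycin group. Proliferation genes summed to 78.4 to 125 CPM in the naive and 395 to 617 CPM in the bleomycin libraries, and 11 of 14 tested rose (median log2 fold change 2.52). Within the bleomycin group the 3 libraries highest in Psat1 (bleomycin 1, 2 and 4) were also the 3 highest in this sum, at 497, 617 and 547 CPM, against 395 and 484 CPM in bleomycin 3 and 5. AT1 cell genes summed to 1091 to 1317 and 1751 to 2299 CPM, with 6 of 8 higher. Fibroblast genes summed to 3.87 to 10.4 CPM in the naive libraries and to 55, 117, 18.1, 23.8 and 26.9 CPM in bleomycin 1 to 5. Only 3 of these 9 genes were tested and all 3 were higher, with Lum at 0 counts in both groups and Tcf21 at 0 after bleomycin. At naive sums this low, most of the 3 could pass the filter only through the bleomycin libraries, where they are high. Their count is thus a description. Markers of the other lists could also pass the filter through the bleomycin libraries alone, so the shares of tested genes lean toward genes high there. Endothelial genes summed to 22.4 to 31.2 and 25.1 to 81.9 CPM, with 2 of 6 higher. Airway genes overlapped in their sums (483 to 960 and 556 to 1001 CPM), with 2 of 6 higher. AT2 genes summed to 53566, 63192, 100329, 82287 and 88037 CPM in bleomycin 1 to 5, so that bleomycin 1, 2, 4 and 5 lay below every naive library, and bleomycin 1 and 2, lowest here, were among the 3 highest in Psat1. Of the 10 AT2 genes, 2 rose (Sftpd and Napsa) and 1 fell (Etv5), with a median log2 fold change of -0.19 and 8 below 0. The matches with Psat1 by library were picked out after the values were seen. In the proliferation sum, bleomycin 1 (497 CPM) lay only just above bleomycin 5 (484 CPM). The part of these markers in the rise of Psat1, Mthfd2 and Shmt2 was not tested.

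Where a member has a partner enzyme, the log2 ratio of the 2 counts within a library does not depend on library size. It was computed as 11 ratios over both comparisons and tested by exact two-sided permutation over libraries with Benjamini-Hochberg adjustment over the 11. None passed, and 2 had an unadjusted p under 0.05, both of Mthfd2 against Mthfd1. With so few libraries the test could hardly give a call. Even the smallest exact p possible could pass the adjustment only if several of the 11 ratios reached it. The absence of a call is thus no result about a single ratio. The other ratios reported here had exact p from 0.143 to 0.968. Mthfd2 against Mthfd1, the cytosolic enzyme of the same steps, differed most. The ratio was -6.35, -7.14, -6.99 and -7.03 in vehicle libraries and -8.08, -8.14, -7.21 and -7.5 in ISRIB libraries, a difference of -0.85 (exact p 0.0286, the smallest that 4 against 4 can give, adjusted p 0.157). The groups did not overlap. Per length, Mthfd2 was 1.10% of the pair with vehicle and 0.618% with ISRIB.

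The same ratio was -7.75, -6.58, -7.98 and -6.41 in naive and -5.26, -5.11, -5.7, -4.92 and -5.54 in bleomycin libraries, a difference of 1.87 (exact p 0.0159, the smallest that 5 against 4 can give, adjusted p 0.157). Every bleomycin library again lay outside the naive range. Per length, Mthfd2 was 0.969% of the pair in naive and 3.17% in bleomycin libraries. Shmt2 against cytosolic Shmt1 differed by 0.13 with ISRIB and 0.29 after bleomycin (exact p 0.371 and 0.333), with Shmt2 at 39.9% to 47.4% of the pair per length in the 4 groups. Aldh1l2 was 2.65% to 4.57% of its pair with Aldh1l1, and Gpt2 10.4% to 16% of its pair with Gpt, so the cytosolic form had the higher mean per length in each of these pairs. Cth made up 89.2% to 93.5% of its pair with Cbs, the enzyme before it in transsulfuration.

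For each called member, the 3 other genes of the same table with the most similar profile were found by the root mean square (RMS) difference of centred log2 CPM, over genes of at least 5 CPM. In the 8 poly(A) libraries the genes near Psat1 included the phosphatase gene Dusp6 (RMS 0.19) and Slc41a2 (0.20), among 9541 genes, where the RMS of Psat1 about its own mean was 0.46. In the 9 total-RNA libraries the nearest to Psat1 were Sema3c (0.29), the glycolytic enzyme gene Eno1 (0.29, uncertain because a near-identical copy, Eno1b, exists) and the DNA ligase gene Lig1 (0.31), among 9661 genes (own RMS 0.85). Shmt2 was followed by Plxnd1 (0.12), Msrb3 (0.14) and Nln (0.14), with an own RMS of 0.49. Mthfd2 was followed by Tgm1 (0.33), the spindle gene Tacc3 (0.39) and Nol3 (0.42), with an own RMS of 0.92. No gene was among the 3 nearest of 2 members or of both comparisons.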

How the data were processed

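The authors deposited raw counts, 1 whole number per gene and library, in 1 table for each kit with 43430 Ensembl gene IDs. Per the submitters' processing notes the tools were bcl2fastq 2.19.1, FastQC, Trimmomatic 0.36, STAR 2.6.0 and HTSeq 0.11.2 with mm10. Their roles, the strand setting and the annotation release are not given in the labels, and the authors did not pool replicates in these tables. IDs were named from GENCODE M21 (GRCm38), where 42546 matched, and promoters came from RefSeq (GRCm38.p6).

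Each kit was fitted alone in edgeR 4.0.16 (R 4.3.3): filterByExpr by group (minimum count 10, minimum total 15), TMM factors, two-sided quasi-likelihood F test with group as the only term, and Benjamini-Hochberg adjustment over all genes tested, with a call at an adjusted p under 0.05. CPM used the filtered library sizes times the TMM factors. The SE is the unshrunken log2 fold change over the root of F. Replicates differed by more than counting error. Tested on simulated counts, the ISRIB design recovered 65.8% of log2 changes of 0.5 and 90.8% of changes of 1, and the bleomycin design 6.84% and 60.8%. False calls were 7.19% and 6.81%, and 13.3% and 4.07%. The bleomycin runs held 190 and 194 tested genes with a change, drawn at random, whereas 2304 genes were called in the data. Recovery depends on that number and on the level of a gene, so these shares are not the power for the members.

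Alternatives were no filter, RLE factors, protein-coding genes only, DESeq2 1.42.0, limma-voom (limma 3.58.1), the replicate number as a block and each library left out. Isozyme ratios used a pseudocount of 0.5 and exact permutation in scipy 1.17.1. The enzymes, the 16 gene lists, the isozyme pairs and the tests were chosen with earlier results of these data known. The text names all 10 enzymes, pathway genes and ATF4-related genes that passed the threshold in either comparison, Atf4, and the 3 nearest profiles of each called enzyme. Some results that this rule or the isozyme pairs would give are not reported here. Genes named for a change of call under another setting, or as called markers, were chosen after their values were seen.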

Additional observations from a re-analysis of the deposited data

Results flagged for a closer look

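In 4 of 40 groups of libraries checked over the 10 enzymes, 1 library lay far from the others of its group by Dixon's criterion at 95%. Chance flags about 1 in 20 groups. Mthfd2 was at 4.03 CPM in vehicle 1, with the next vehicle library at 2.69 CPM. Psat1 was at 7.05 CPM in naive 2 (33 counts), with the next naive library at 3.9 CPM. Mthfd2 was at 9.59 CPM in bleomycin 4, with the next bleomycin library at 6.14 CPM. Aldh1l2 was at 11.1 CPM in bleomycin 4, with the next at 3.56 CPM. Without bleomycin 4, the log2 fold change of Aldh1l2 after bleomycin moved from -0.30 to -0.97 (edgeR adjusted p 0.138). The calls of Psat1 with and without naive 2, and of Mthfd2 after bleomycin with and without bleomycin 4, were the same.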

How the results depend on the processing

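The fall of Psat1 with ISRIB was called under all 14 alternatives. The number of members called with ISRIB, 1 in the reported fit, was 4 without the filter on low counts, 2 in DESeq2, 2 with the replicate number as a block, and 1 to 2 when each library was left out (2 without vehicle 4 or ISRIB 2). The number of other pathway genes called with ISRIB, 0, became 4 without the filter, 1 in DESeq2, 1 with the block and 0 to 1 over the leave-outs. After bleomycin, the 3 members called became 1 in limma-voom and 1 to 3 over the leave-outs (1 without naive 1 or naive 3). The cause of these moves was not tested. With no filter 648 genes in all were called with ISRIB against 265, 406 in DESeq2 and 86 to 269 over the leave-outs.

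The labels do not say whether same-numbered libraries were handled together. Deviations of same-numbered libraries correlated at -0.138, 0.065, 0.043 and 0.185 in the ISRIB comparison and at -0.125, 0.172, -0.077 and 0.082 in the other. Differently numbered libraries reached 0.217 and 0.183. So few values cannot show whether the numbers pair the libraries. With the replicate number as a block, Cth with ISRIB passed (adjusted p 0.0347), Shmt2 after bleomycin did not (0.12), and 1 isozyme ratio after bleomycin passed in limma, Mthfd2 to Mthfd1, against 0 by permutation.

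Signs turned for small, uncalled differences. Pycr1 with ISRIB was -0.0026 in limma-voom, and the Aldh1l2 to Aldh1l1 ratio after bleomycin was -0.01 with the block. Over the leave-outs, log2 fold changes with ISRIB ran from -0.24 to 0.17 for Phgdh, -0.05 to 0.21 for Psph, -0.14 to 0.01 for Shmt2, -0.34 to 0.09 for Aldh1l2 and -0.28 to 0.35 for Pycr1, and that of Asns after bleomycin from -0.02 to 0.65. Leave-outs were not run for ISRIB ratios, where 4 against 3 cannot give a p below 0.0571. In the total-RNA set, Phgdh and Pycr1 were too shallow to test. Only 6.84% of simulated log2 changes of 0.5 were recovered, in a run with far fewer changed genes than were called in the data.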
